A study of Mus musculus with 5 samples.

Results

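The TGF-beta and BMP pathway was examined as 50 genes for ligands, receptors, SMAD proteins, extracellular antagonists and latent TGF-beta binding proteins, chosen by symbol out of the 24843 gene symbols in the RNA-seq tables. All 50 symbols were found, on 93 RefSeq transcript rows, and the FPKM values (fragments per kilobase of transcript, scaled by the authors to the mapped fragments of each library) of transcripts with the same symbol were summed in each sample. The genes were compared between neural stem cells (NSCs, n = 2) and STO cells (n = 3), 2 of the cell types used in a study of chromatin structure in female germline stem cells.

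The NSCs were primary cells from mouse embryonic cortex at passages 5 to 8, of strain C57BL/6, grown on poly-L-ornithine and laminin in neural basal medium with EGF, bFGF, heparin and B27. The STO cells, SIM mouse embryonic fibroblasts resistant to thioguanine and ouabain, were labelled C57BL/6 and taken after more than 30 passages, and they were grown in DMEM with fetal bovine serum. STO is a single established line that also serves as a feeder layer. The labels name no further treatment of these samples, and cell type and culture medium (with or without serum, with or without added growth factors) cannot be told apart in this comparison. Nothing in the labels says that replicates came from separate cultures, so a p-value here measures the spread between these samples, which may be technical.

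Ligands of the TGF-beta family bind a pair of type II and type I receptor kinases. The type I receptor then phosphorylates receptor-regulated SMAD proteins, which join the common SMAD4 and act on genes in the nucleus. TGF-betas and activins act mainly through SMAD2 and SMAD3, and BMPs through SMAD1, SMAD5 and SMAD9. Inhibitory SMADs, secreted antagonists and the latent binding proteins that hold TGF-beta in the matrix set how much signal reaches the cell. In the embryonic cortex BMPs can, at some stages, favour astrocyte formation, and in fibroblasts TGF-beta drives production of matrix.

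The labels were checked against markers. In the NSCs, Nes was at 176 and 169 FPKM and Sox2 at 308 and 276 FPKM, while no STO sample was above 0.0724 FPKM for Nes and all were listed at 0 for Sox2. Col1a1 was at 268, 272 and 222 FPKM in STO cells and at 0.15 and 0.196 FPKM in NSCs. The NSCs also held genes of glial cells and neurons. All 4 astrocyte markers were higher in NSCs, with a summed FPKM of 178 and 176 against 0.208 to 0.412 in STO cells. Most of the NSC sum came from Aldoc (155 and 150 FPKM), while Gfap was at 15.9 and 16.9 FPKM. Of 4 oligodendrocyte lineage markers, 3 were higher in NSCs, among them the myelin gene Mbp at 83.4 and 88.3 FPKM, and Pdgfra was higher in STO cells. Of 5 neuron markers, 3 of the 4 tested were higher in NSCs, and the summed FPKM of the list was 19.1 and 17.5 in NSCs and 7.84 to 8.61 in STO cells. Nearly all of the STO sum came from Tubb3 (7.84 to 8.57 FPKM), which was not called. In bulk RNA, a difference in the share of cells of a type and a difference in RNA per cell cannot be told apart, and the part of glial cells and neurons in the results was not tested. Among 72 genes for ribosomal proteins, which every cell uses, Rps27 was listed at 0 in all 5 samples and Rpl30 at 0 in both NSC samples but at 31.7 to 38.2 FPKM in STO cells, so an exact 0 in these tables can be a failed estimate.

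Of the 50 members, 37 reached a mean of 1 FPKM in NSCs or STO cells and were tested with all 12277 such genes. By limma on log2(FPKM + 1) with Benjamini-Hochberg adjustment at 0.05, 25 members were higher in STO cells and 9 were lower, while 3 (Inha, Bmpr2 and Nog) did not pass the test. Among all tested genes, 41.9% were higher in STO cells and 43.7% lower. With a difference of at least 1 on the log2 scale also required, 16 members were higher and 4 lower, beside 17.1% and 21.3% of all tested genes. The median difference was 0.58 on the log2 scale over the 37 tested members and -0.02 over all tested genes, and it was 0.19 over all 50 members. The values of NSCs and STO cells did not overlap for 35 of the 37, the exceptions being Inha and Bmpr2, and they did not overlap for 90.0% of all tested genes. The 13 members not tested did not exceed 0.648 FPKM in any sample, the highest being Bmp4. Because a gene high in only 1 cell type passes the filter and must then differ, these counts describe the tested members and not all 50. After a level, share or ratio, ± gives the SD over samples, and after a log2 difference the standard error.

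**Figure D1:**
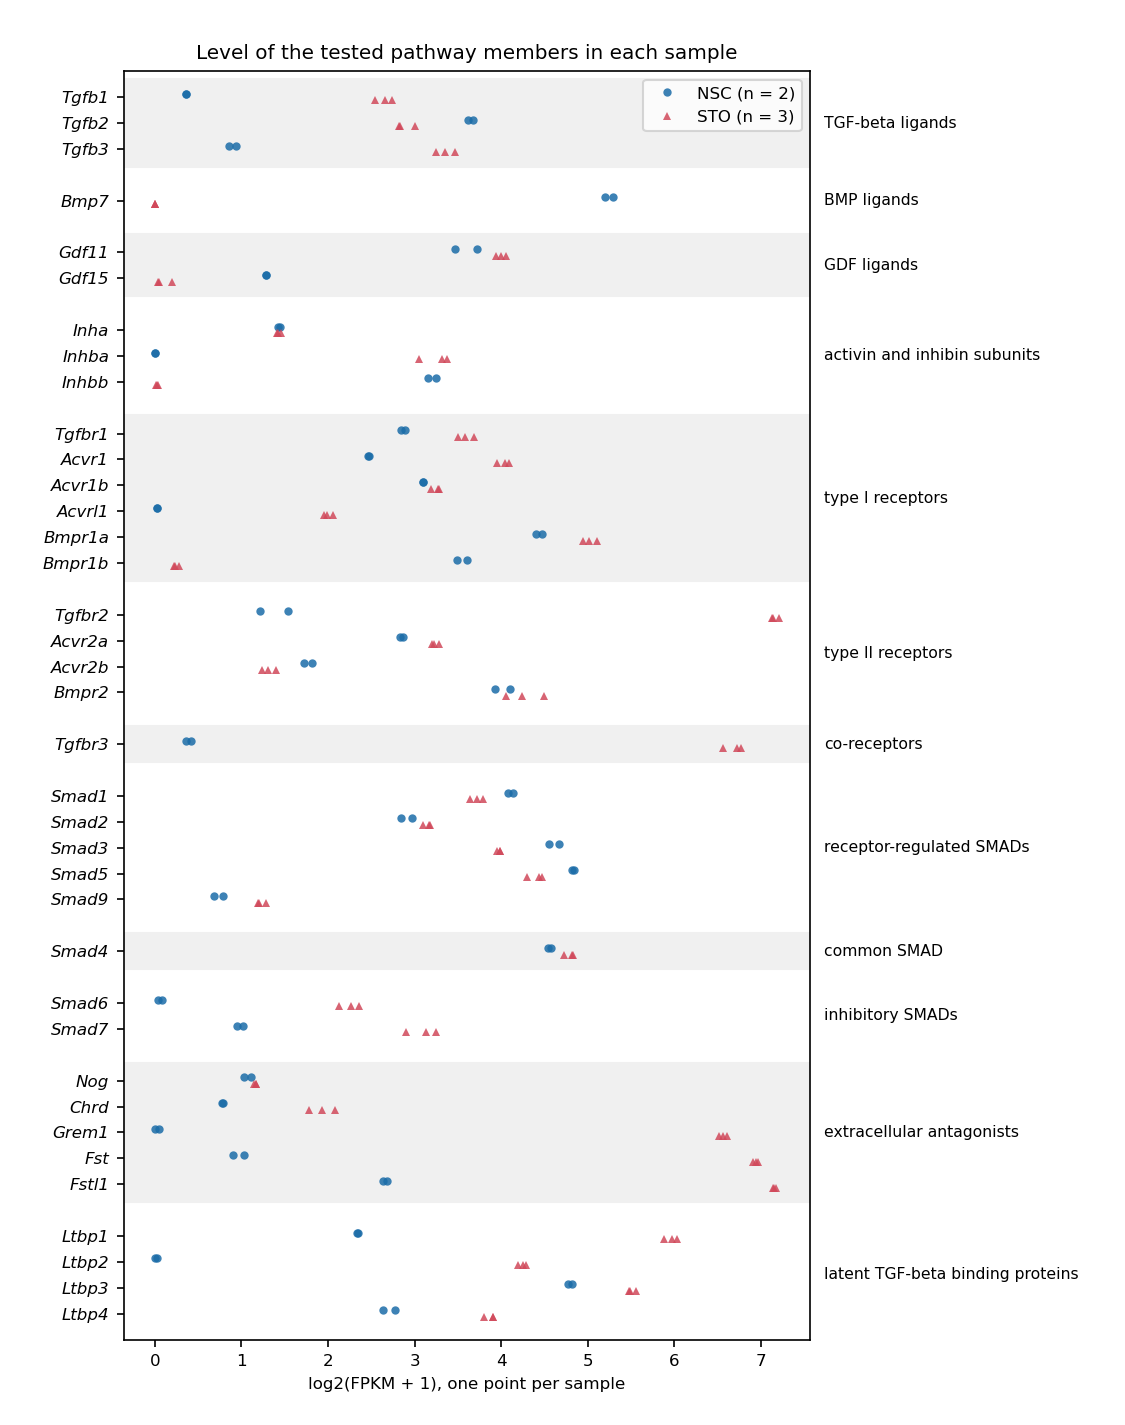
Level of the 37 tested members in each sample as log2(FPKM + 1), with circles for the 2 NSC samples and triangles for the 3 STO samples, grouped by class. For receptor-regulated SMADs and Smad4 the cell type means differ by at most 0.64, while Tgfbr2, Tgfbr3, Grem1, Fst and Fstl1 reach more than 90 FPKM in STO cells and stay under 6 FPKM in NSCs.

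The 3 TGF-beta ligand genes were used in different proportions. Tgfb2 was at 11.8 and 11.2 FPKM in NSCs and at 6.13, 7.03 and 6.05 FPKM in STO cells, a difference of -0.76 ± 0.07 (SE) on the log2 scale (adjusted p = 1.0e-04). Tgfb3 was at 0.911 and 0.806 FPKM in NSCs and at 10.0, 9.17 and 8.48 FPKM in STO cells (10.7-fold higher, adjusted p = 3.9e-07). Tgfb1, the isoform most abundant in blood platelets, went the same way, with 0.278 and 0.280 FPKM in NSCs and 4.83, 5.67 and 5.30 FPKM in STO cells (18.9-fold higher, adjusted p = 2.9e-07). The groups did not overlap for any of the 3 genes, and they did not for 90.0% of all tested genes. Tgfb2 made up 91.0% ± 0.2 (SD, n = 2) of the summed FPKM of the 3 ligands in NSCs and 30.6% ± 1.5 (SD, n = 3) in STO cells, where Tgfb3 held the largest part with 44.2% ± 3.2. The summed level was 12.6 ± 0.5 FPKM in NSCs and 20.9 ± 1.0 FPKM in STO cells.

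Among the 8 BMP ligand genes, Bmp7 alone passed the filter. Bmp7, a BMP with roles in kidney, eye and brain development, was at 35.7 and 38.2 FPKM in NSCs and listed at 0 in all 3 STO samples (adjusted p = 5.2e-09). It held 97.7% of the summed FPKM of the BMP ligands in NSCs. Because all STO values were 0, its fitted difference depended on the pseudocount, being -5.25 with a pseudocount of 1 and -8.53 with 0.1. Bmp4, which specifies ventral mesoderm and dorsal neural tube, had the highest listed value of the BMP ligands in STO cells, where the 0 of Bmp7 may be a failed estimate, with 0.280, 0.323 and 0.353 FPKM, and it was at 0.571 and 0.648 FPKM in NSCs. Bmp2, Bmp3, Bmp5, Bmp6, Bmp8a and Bmp8b were below 0.22 FPKM in every sample, Bmp6 being listed at 0 in all. Bmp8a and Bmp8b are near-identical copies, so that reads could have been split between them.

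Of the 6 GDF genes, Gdf11 and Gdf15 were tested. Gdf11, a close relative of myostatin, was at 12.2 and 10.0 FPKM in NSCs and at 15.0, 15.6 and 14.3 FPKM in STO cells, a small increase of 0.40 ± 0.09 (adjusted p = 0.0050). Gdf15, a stress-responsive cytokine, was at 1.43 and 1.44 FPKM in NSCs and at 0.0321, 0.0280 and 0.147 FPKM in STO cells (20.7-fold lower in STO cells, adjusted p = 3.9e-06). Its fold was 47.7 without STO replicate 3, and its difference of -1.19 became -0.34 with quantile normalization. Gdf5, Gdf6, Gdf7 and Gdf10 did not exceed 0.115 FPKM in any sample.

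The 2 activin beta subunit genes had opposite patterns, as far as a listed 0 for Inhba in NSCs can be taken as a low level. INHBA chains pair to form activin A and INHBB chains activin B, while a pair with the INHA chain gives an inhibin, which blocks activin. Inhba was listed at 0 in both NSC samples and was at 8.97, 9.39 and 7.32 FPKM in STO cells (adjusted p = 3.6e-07). Inhbb was at 8.46 and 7.89 FPKM in NSCs and at 0.0208, 0.00909 and 0.0137 FPKM in STO cells (adjusted p = 1.6e-08). Each beta subunit gene was thus the main one in 1 cell type, with Inhbb at 82.8% of the summed FPKM of the 3 subunits in NSCs and Inhba at 83.2% in STO cells. Inha did not pass the test (adjusted p = 0.94), with 1.67 and 1.73 FPKM in NSCs and 1.67, 1.67 and 1.74 FPKM in STO cells. Both the sign and the call of its difference depended on the scaling. The summed level of the 3 genes was 9.88 ± 0.36 FPKM in NSCs and 10.3 ± 1.1 FPKM in STO cells.

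The 150 bases before the annotated start of both beta subunit genes are given 5′ to 3′, since these genes showed opposite patterns. They were taken from the RefSeq promoter table for GRCm38.p6, found unchanged in mm9, and are placed by mm9 position. Inhba lies on the plus strand at chr13:16103534-16103683 and Inhbb on the minus strand at chr1:121318826-121318975. Capitals mark CAGAC or its reverse complement, the short motif that SMAD3 and SMAD4 bind.
Inhba: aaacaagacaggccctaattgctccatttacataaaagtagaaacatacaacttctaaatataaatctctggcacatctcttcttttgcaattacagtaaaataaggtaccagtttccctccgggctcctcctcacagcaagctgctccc
Inhbb: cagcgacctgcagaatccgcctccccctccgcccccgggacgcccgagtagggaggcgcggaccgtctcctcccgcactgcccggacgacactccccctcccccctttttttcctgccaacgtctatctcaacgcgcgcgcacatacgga
Neither stretch holds the motif. The 300-base promoter of Inhba has 7 CG dinucleotides and a TATAAA, and that of Inhbb has 23 CG dinucleotides and no TATAAA.

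Among the 6 type I receptors, which carry the signal to the SMADs, 5 were higher in STO cells and 1 was lower. Of all tested genes, 41.9% were higher and 43.7% lower. Bmpr1b, a BMP receptor used in cartilage and the nervous system, was at 10.2 and 11.2 FPKM in NSCs and at 0.171, 0.164 and 0.213 FPKM in STO cells (58.8-fold lower, adjusted p = 2.3e-08). Bmpr1a, the other main BMP type I receptor, was the highest of the class in both cell types, with 20.2 and 21.1 FPKM in NSCs and 29.9, 33.4 and 31.3 FPKM in STO cells (adjusted p = 1.7e-04). The FPKM of Bmpr1b was 0.518 ± 0.016 times that of Bmpr1a in NSCs and 0.00580 ± 0.00095 times in STO cells, without overlap of the groups.

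Acvrl1, also called ALK1 and best known from endothelial cells, was at 0.0178 and 0.0163 FPKM in NSCs and at 3.16, 2.96 and 2.87 FPKM in STO cells (adjusted p = 1.4e-07). Acvr1 (ALK2) was at 4.53 and 4.55 FPKM in NSCs and at 14.4, 16.1 and 15.4 FPKM in STO cells (3.38-fold higher, adjusted p = 1.2e-06). None of the 5 endothelial markers passed the filter, and their summed FPKM was 0.706 and 0.955 in NSCs and 0.341 to 0.604 in STO cells. Of these markers, Tek (0.208 to 0.339 against at most 0.00699 FPKM) and Cdh5 (0.109 to 0.116 FPKM against a listed 0) were higher in STO cells without overlap, Kdr and Emcn were higher in NSCs, and Pecam1 overlapped. Their part in the Acvrl1 difference was not tested. Tgfbr1, the type I receptor for TGF-beta, was 1.76-fold higher in STO cells, at 6.42 and 6.17 FPKM in NSCs and 11.0, 11.9 and 10.3 FPKM in STO cells (adjusted p = 9.6e-05). Acvr1b, an activin receptor, was nearly level with 7.53 and 7.56 FPKM in NSCs and 8.66, 8.70 and 8.15 FPKM in STO cells, and its small difference of 0.15 ± 0.05 (adjusted p = 0.037) was not called under 7 of the alternatives. Acvrl1 and Acvr1b lie 28.8 kb apart on chromosome 15, and their differences were 1.97 and 0.15 on the log2 scale.

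In the type II receptors, which bind ligand and activate the type I partner, the class was dominated by different genes. Tgfbr2, the TGF-beta type II receptor (chr9:115996813-116084481), was at 1.32 and 1.89 FPKM in NSCs and at 141, 147 and 139 FPKM in STO cells (88.5-fold higher, adjusted p = 2.3e-08). Bmpr2, the BMP type II receptor, was at 14.2 and 16.2 FPKM in NSCs and at 17.9, 21.6 and 15.6 FPKM in STO cells, overlapping and not called (adjusted p = 0.13). Without STO replicate 3, Bmpr2 was called higher in STO cells (0.36 on the log2 scale, adjusted p = 0.030). Bmpr2 gave 59.7% ± 1.9 of the summed FPKM of the 4 type II receptors in NSCs, whereas Tgfbr2 gave 83.4% ± 1.2 in STO cells. The activin receptors changed little and in opposite directions, Acvr2a by 0.39 ± 0.05 (adjusted p = 6.4e-04) and Acvr2b by -0.45 ± 0.06 (adjusted p = 6.9e-04). The FPKM of Tgfbr2 was 0.205 and 0.307 times that of Tgfbr1 in the NSC samples and 12.8, 12.3 and 13.5 times in the STO samples.

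Tgfbr3 (betaglycan), a co-receptor that presents TGF-beta2 to TGFBR2 and also binds inhibin, had the largest ratio of STO to NSC means among the members above 0 in all samples. It was at 0.282 and 0.334 FPKM in NSCs and at 108, 105 and 93.2 FPKM in STO cells (332-fold higher, adjusted p = 7.3e-09). Eng (endoglin), the other co-receptor, was listed at 0 in all 5 samples on all of its transcripts, which may be a failed estimate.

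**Figure D2:**
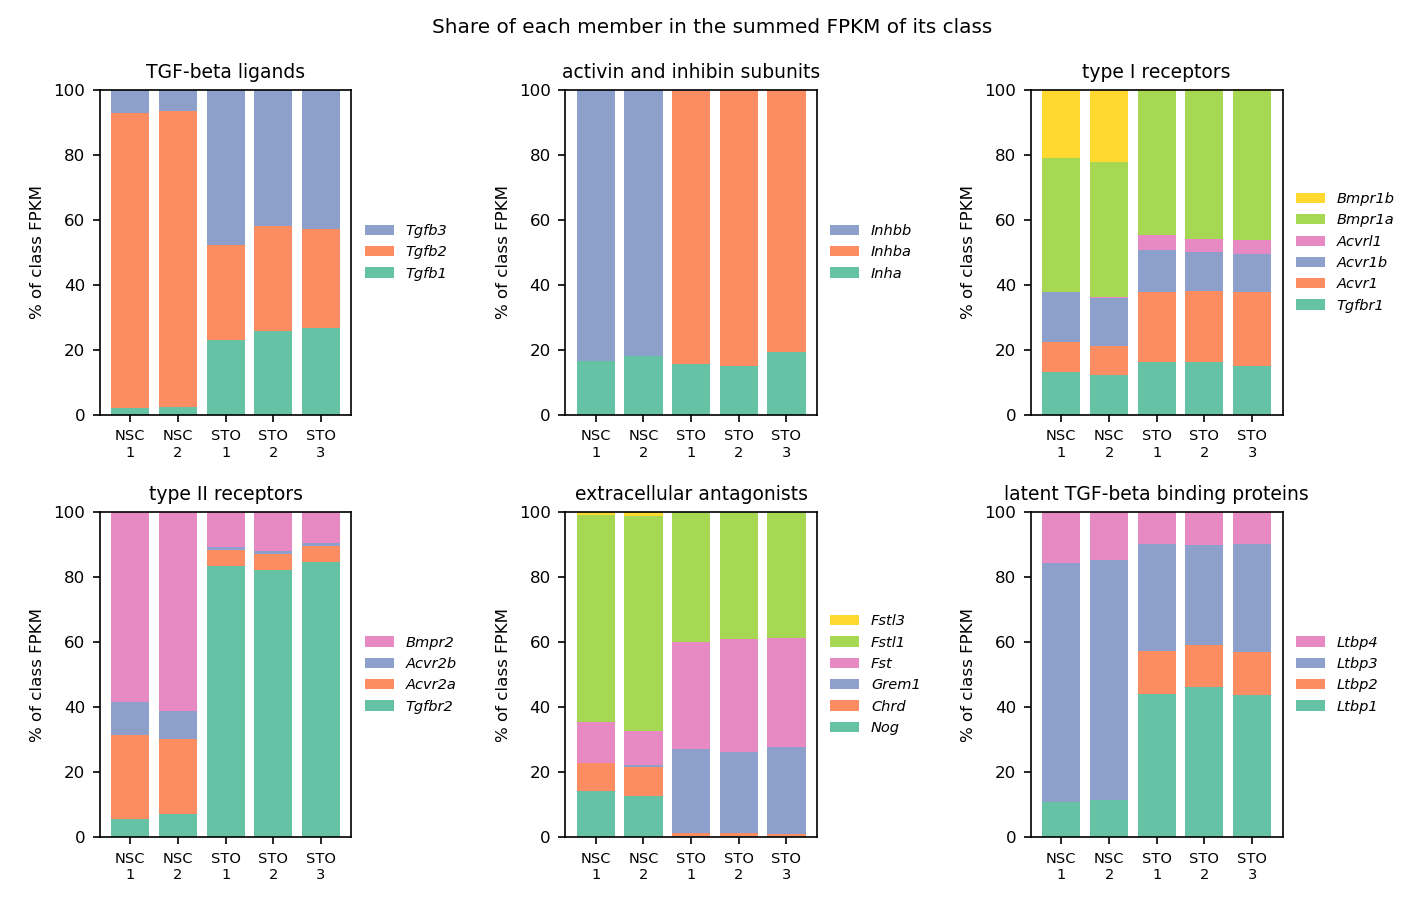
Share of each member in the summed FPKM of its class, in percent, for 6 classes, with 1 stacked bar per sample. Tgfb2, Inhbb, Bmpr2 and Ltbp3 hold the largest part of their class in both NSC samples, and Tgfb3, Inhba and Tgfbr2 do so in the 3 STO samples, while Bmpr1a and Fstl1 lead their classes in all 5.

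The genes for the SMAD proteins that carry the signal were expressed in both cell types. All 6 passed the test, 3 in each direction, with differences of at most 0.64 on the log2(FPKM + 1) scale, which compresses that of the low Smad9. By the same test, 41.9% of all tested genes were higher in STO cells and 43.7% lower. Smad3 was at 24.4 and 22.5 FPKM in NSCs and at 14.9, 14.9 and 14.5 FPKM in STO cells (adjusted p = 5.9e-05). Smad2 was at 6.19 and 6.82 FPKM in NSCs and at 7.53, 8.00 and 8.04 FPKM in STO cells (adjusted p = 0.011), a call lost without NSC replicate 1 (adjusted p = 0.068). Of this pair of SMADs for TGF-beta and activin, Smad3 was the more abundant in every sample, with 3.94 and 3.30 times the FPKM of Smad2 in NSCs and 1.98, 1.86 and 1.80 times in STO cells.

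The BMP SMADs differed in both directions. Smad5, the most abundant receptor-regulated SMAD in all 5 samples, was at 27.7 and 27.3 FPKM in NSCs and at 20.7, 21.1 and 18.7 FPKM in STO cells (adjusted p = 9.1e-04). Smad1 was at 16.5 and 15.9 FPKM in NSCs and at 12.2, 12.8 and 11.4 FPKM in STO cells (adjusted p = 0.0013). Smad9 was low in both, with 0.727 and 0.604 FPKM against 1.44, 1.30 and 1.28 FPKM (2.01-fold higher, adjusted p = 2.4e-04), and its difference of 0.49 became 0.91 with a pseudocount of 0.1 and 1.08 with quantile normalization. Smad4, the partner of all of them, was at 22.3 and 22.8 FPKM in NSCs and at 27.3, 27.3 and 25.4 FPKM in STO cells (adjusted p = 0.0075). The summed FPKM of the 5 receptor-regulated SMADs was 74.3 ± 1.8 in NSCs and 56.3 ± 2.1 in STO cells.

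Both inhibitory SMADs were higher in STO cells, beside 41.9% of all tested genes. Smad6, which acts mainly on BMP signals, was at 0.0214 and 0.0586 FPKM in NSCs and at 4.12, 3.80 and 3.37 FPKM in STO cells (2.19 ± 0.08 on the log2 scale, adjusted p = 5.8e-07). Smad7, which blocks both branches and is itself a target of TGF-beta, was at 0.931 and 1.02 FPKM in NSCs and at 8.49, 7.74 and 6.45 FPKM in STO cells (7.75-fold higher, adjusted p = 3.6e-06). The FPKM of Smad7 was 0.0381 and 0.0453 times that of Smad3 in NSCs and 0.571, 0.521 and 0.445 times in STO cells. Smad3 and Smad6 are neighbours on chromosome 9, 195 kb apart, with differences of -0.64 and 2.19 on the log2 scale.

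Of the 6 secreted antagonists, 5 were tested and 4 were higher in STO cells, beside 41.9% of all tested genes. Fstl1, Fst and Grem1 reached 3 of the 5 highest member levels in STO cells. The summed FPKM of the 6 antagonists was 8.18 and 8.17 in NSCs and 361, 360 and 362 in STO cells. Grem1 (gremlin), which binds BMPs, was listed at 0 and at 0.0354 FPKM in NSCs and was at 93.3, 90.6 and 96.3 FPKM in STO cells (adjusted p = 4.6e-09). Fst (follistatin), which binds activins, was at 1.04 and 0.862 FPKM in NSCs and at 119, 124 and 122 FPKM in STO cells (128-fold higher, adjusted p = 5.2e-09). In the STO samples, Fst had 13.3, 13.2 and 16.7 times the FPKM of Inhba, the activin subunit gene they expressed. Fstl1, a secreted glycoprotein related to follistatin, was at 5.19 and 5.40 FPKM in NSCs and at 144, 141 and 140 FPKM in STO cells (26.7-fold higher, adjusted p = 5.5e-09).

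The classical BMP antagonists noggin and chordin stayed low. Chrd was at 0.709 and 0.721 FPKM in NSCs and at 3.22, 2.82 and 2.42 FPKM in STO cells (3.95-fold higher, adjusted p = 3.4e-05). Nog was at 1.16 and 1.04 FPKM in NSCs and at 1.25, 1.25 and 1.21 FPKM in STO cells and was not called (adjusted p = 0.12), though without NSC replicate 1 it was called higher in STO cells by 0.13 (adjusted p = 0.0056). Fstl3 was at most 0.164 FPKM in any sample. In NSCs, Fstl1 alone gave 64.8% ± 1.9 of the summed FPKM of the class, and in STO cells Fstl1, Fst and Grem1 gave 39.2% ± 0.5, 33.7% ± 0.7 and 25.9% ± 0.7.

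**Figure D3:**
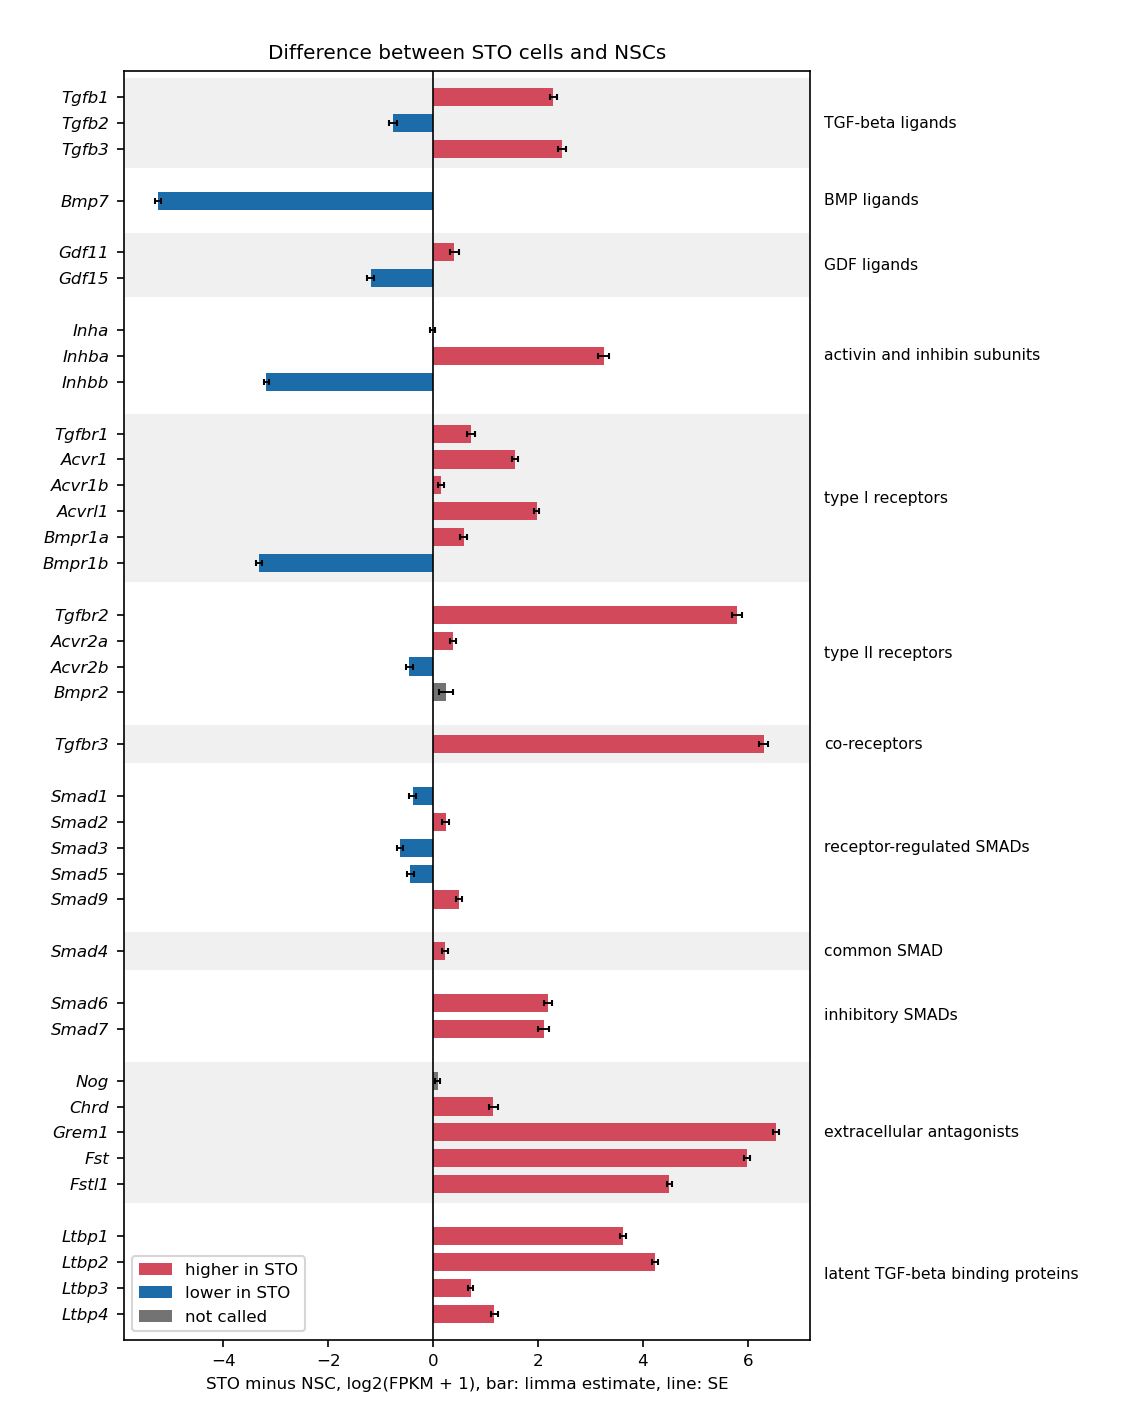
Difference between STO cells and NSCs for the 37 tested members on the log2(FPKM + 1) scale, as limma estimates with standard errors, coloured by call. Bars run from -5.25 for Bmp7 to 6.54 for Grem1, and the bars of the receptor-regulated SMADs and Smad4 stay within 0.64 of 0.

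All 4 latent TGF-beta binding protein genes were higher in STO cells, beside 41.9% of all tested genes. LTBP1, LTBP3 and LTBP4 bind the TGF-beta propeptide and tether it to the matrix, whereas LTBP2 does not bind it. Ltbp1 was at 4.03 and 4.10 FPKM in NSCs and at 62.0, 64.7 and 57.8 FPKM in STO cells (15.1-fold higher, adjusted p = 2.5e-08). Ltbp2 was listed at 0 and at 0.0132 FPKM in NSCs and was at 18.6, 18.0 and 17.4 FPKM in STO cells (adjusted p = 8.6e-09). Ltbp3 was the main one in NSCs, at 27.1 and 26.3 FPKM, and was at 46.3, 43.4 and 43.9 FPKM in STO cells (1.67-fold higher, adjusted p = 2.5e-05). Ltbp4 was at 5.83 and 5.21 FPKM in NSCs and at 14.0, 14.0 and 12.9 FPKM in STO cells (2.47-fold higher, adjusted p = 7.3e-06). The FPKM of Ltbp1 was 0.152 ± 0.005 times that of Ltbp3 in NSCs and 1.38 ± 0.09 times in STO cells.

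Ltbp1 and Ltbp4 are transcribed from distant annotated starts, and the deposited transcripts allowed these to be told apart. Both were chosen for this after their values had been seen, so the values are given without a test. At Ltbp1, on the plus strand of chromosome 17, the starts lie 173 kb apart. The single transcript from the upstream start was at 3.14 and 3.19 FPKM in NSCs and at 33.2, 31.4 and 26.2 FPKM in STO cells. The 6 transcripts from the downstream start were together at 0.897 and 0.910 FPKM in NSCs and at 28.8, 33.3 and 31.6 FPKM in STO cells. Both starts had more FPKM in STO cells. The upstream start gave 77.8% and 77.8% of the gene's FPKM in NSCs and 53.6%, 48.5% and 45.3% in STO cells. Which of the 6 downstream transcripts received the FPKM differed between samples, so only their sum is given.

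At Ltbp4, on the minus strand of chromosome 7, the outer starts lie 3.96 kb apart. The transcript from the upstream start was at 0.846 and 1.12 FPKM in NSCs and was listed at 0 in all 3 STO samples. The transcript from the downstream start was at 4.99 and 4.10 FPKM in NSCs and at 14.0, 14.0 and 12.9 FPKM in STO cells. A further transcript that starts beside it was listed at 0 in all samples. Such values come from the division of shared reads among transcripts by Cufflinks, which is less certain than the sum for the gene.

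The transcript with the highest mean FPKM differed between the cell types for 3 of the 15 tested members with several transcripts and a level above 0 in both. At Tgfbr1, whose 2 expressed transcripts share their start, one transcript was at 3.58 and 3.24 FPKM in NSCs and at 4.81, 5.18 and 5.18 FPKM in STO cells, and the other at 2.84 and 2.93 FPKM in NSCs and at 6.17, 6.72 and 5.14 FPKM in STO cells. The leading transcript was thus not the same in STO replicate 3 as in the other STO samples. At Chrd and Bmpr1b the leading transcript also varied among the replicates of both cell types, so no transcript could be put to a cell type there. In NSCs, each of the annotated Bmpr1b starts gave FPKM, between 1.19 and 4.66 per start and sample.

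**Figure D4:**
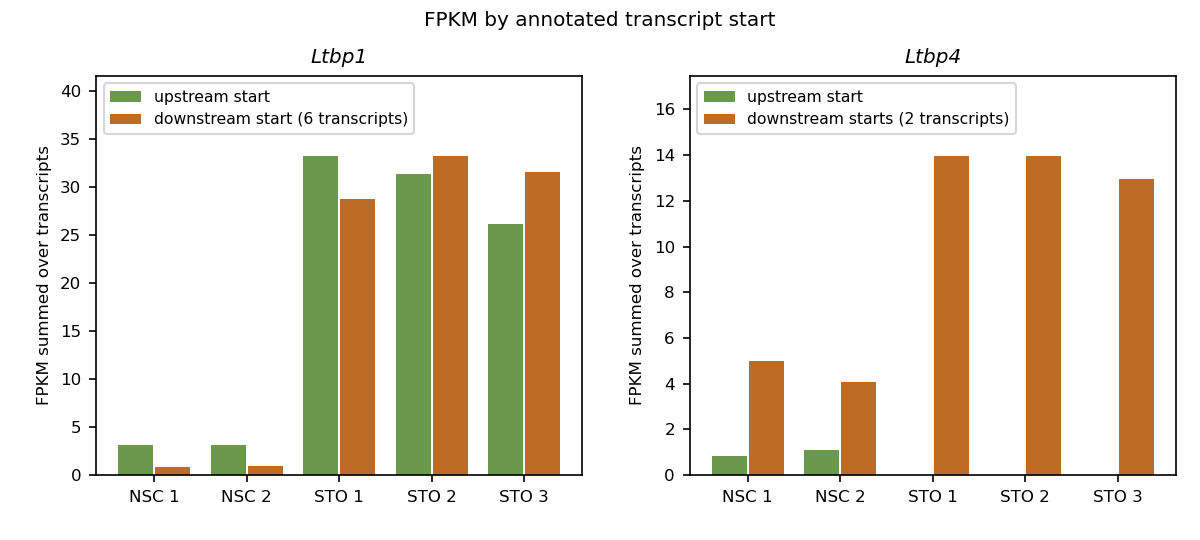
FPKM by annotated transcript start for Ltbp1 (left) and Ltbp4 (right), with 1 pair of bars per sample and axes from 0. For Ltbp1 the upstream start is the higher bar in both NSC samples and the bars are close in STO samples, and for Ltbp4 the upstream bar is at 0 in the 3 STO samples.

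The 150 bases before the 4 starts are given 5′ to 3′ because the listed share of the starts differed between the cell types. For Ltbp4 this rests on the listed 0 of the upstream transcript in STO cells, which may be a failed estimate. In mm9 they lie at chr17:75404719-75404868 and chr17:75577971-75578120 on the plus strand for Ltbp1 and at chr7:28122632-28122781 and chr7:28118668-28118817 on the minus strand for Ltbp4. Capitals again mark CAGAC or GTCTG.
Ltbp1 upstream: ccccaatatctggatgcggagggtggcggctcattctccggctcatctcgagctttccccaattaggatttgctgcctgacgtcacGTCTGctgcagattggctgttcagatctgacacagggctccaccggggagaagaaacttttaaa
Ltbp1 downstream: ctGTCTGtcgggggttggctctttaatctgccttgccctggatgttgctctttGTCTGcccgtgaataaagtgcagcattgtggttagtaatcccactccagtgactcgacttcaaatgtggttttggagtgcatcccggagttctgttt
Ltbp4 upstream: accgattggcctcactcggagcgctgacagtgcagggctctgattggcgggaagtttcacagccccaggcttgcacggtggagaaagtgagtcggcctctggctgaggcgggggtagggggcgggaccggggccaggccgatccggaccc
Ltbp4 downstream: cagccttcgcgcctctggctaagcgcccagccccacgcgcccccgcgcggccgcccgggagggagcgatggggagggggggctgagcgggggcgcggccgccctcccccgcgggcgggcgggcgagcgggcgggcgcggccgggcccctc
The stretch before the upstream Ltbp1 start holds 1 such motif and that before the downstream start holds 2, while neither Ltbp4 stretch holds one. Over the full 300 bases, CG dinucleotides numbered 17 and 7 at the upstream and downstream starts of Ltbp1 and 19 and 39 at those of Ltbp4.

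Promoters were listed for 37 of the 50 members, 46 in all, and each was found unchanged in mm9. Bmp2, Bmp3, Bmp7, Gdf5, Gdf6, Tgfb3, Tgfbr3, Acvrl1, Smad2, Smad4, Smad7, Nog and Fst had no entry. CAGAC on either strand occurred in 24 of the 46 (52.2%), and in 49.6% of the 32851 promoters of the same length. GGCGCC, a GC-rich motif bound by BMP SMADs and equal to its own reverse complement, occurred in 12 of the 46 (26.1%) and in 11.9% of all promoters. Overlapping promoters of Ltbp4 and of Smad5 are among the 12, so that a site can be counted repeatedly. The member promoters were also richer in CG dinucleotides, with a median of 24 against 7 over all promoters. These matches describe letters only.

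The rest of the pathway was read from a list of 87 other genes. Of these, 57 were tested, 38 were higher in STO cells, 16 were lower and 3 were not called, beside 41.9% higher and 43.7% lower among all tested genes. Among the 14 other secreted antagonists and modulators, 7 of the 10 tested were higher and 3 lower. Chrdl1 had the largest decrease of the class and is named here after its values were seen. It was at 24.6 and 25.7 FPKM in NSCs and at 2.17, 2.46 and 2.06 FPKM in STO cells (adjusted p = 9.3e-08). The small proteoglycans Dcn and Bgn, which bind TGF-beta, had the largest increases of that class: Bgn was at 0.0262 FPKM and listed at 0 in NSCs and was at 508, 540 and 497 FPKM in STO cells, and Dcn was listed at 0 in both NSC samples and was at 178, 174 and 184 FPKM in STO cells.

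Among the genes of ligand processing, matrix storage and activation, 3 of the 8 tested were higher in STO cells and 4 were lower. These counts are close to the shares of all tested genes, 41.9% higher and 43.7% lower. Thbs1, which can activate latent TGF-beta, was at 0.136 and 0.238 FPKM in NSCs and at 85.9, 81.9 and 79.4 FPKM in STO cells (adjusted p = 5.2e-09). Itgb8, the beta chain of an integrin that activates it in the developing brain, was at 32.7 and 35.1 FPKM in NSCs and at 1.96, 1.71 and 2.03 FPKM in STO cells (adjusted p = 4.3e-08). Furin, the protease that cleaves the propeptides of the ligands, was at 11.2 and 9.48 FPKM in NSCs and at 40.3, 39.4 and 34.8 FPKM in STO cells (adjusted p = 4.2e-06). Fbn2, a fibrillin of the matrix, was at 9.28 and 9.03 FPKM in NSCs and at most 0.00846 FPKM in STO cells (adjusted p = 9.6e-09). The other fibrillin of the list, Fbn1, went the opposite way. It was at 1.92 and 2.00 FPKM in NSCs and at 15.0, 16.3 and 15.1 FPKM in STO cells (adjusted p = 1.1e-07).

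Of the 18 genes commonly used as targets of the pathway, 11 of the 17 tested were higher in STO cells and 6 were lower, to be read against the same 41.9% and 43.7%. The TGF-beta targets Ccn2 and Tgfbi were both under 0.83 FPKM in NSCs, and in STO cells they were at 21.5 to 22.7 and 38.1 to 41.2 FPKM. Other targets went the opposite way, of which 3 are named here after their values were seen. Klf10, an early TGF-beta response gene, was at 59.1 and 64.0 FPKM in NSCs and at 10.3, 9.77 and 9.86 FPKM in STO cells (adjusted p = 9.1e-08). The cell cycle inhibitor genes Cdkn2b (5.21-fold, adjusted p = 8.2e-07) and Cdkn1a (2.41-fold, adjusted p = 3.2e-06) were also lower in STO cells. The BMP targets of the Id family were split. Id1 was at 6.74 and 7.49 FPKM in NSCs and at 110, 88.2 and 102 FPKM in STO cells (adjusted p = 2.3e-07), and Id4 was also higher in STO cells (2.35 ± 0.09 on the log2 scale, adjusted p = 1.2e-06). Id3 was at 128 and 139 FPKM in NSCs and at 73.1, 54.7 and 62.8 FPKM in STO cells (adjusted p = 2.2e-04), and Id2 was lower in STO cells by a small margin (-0.27 ± 0.09, adjusted p = 0.024). Hey1, also a Notch target, had the largest decrease of the 57 tested genes, from 41.5 and 43.5 FPKM in NSCs to at most 0.0923 FPKM in STO cells (adjusted p = 5.2e-09). Most of these genes also answer to other signals, and no readout of SMAD activity was part of these tables.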

How the data were processed

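RNA-seq of 2 NSC and 3 STO samples was analysed, with groups and replicate numbers taken from the sample labels. By the study's methods, stranded mRNA libraries were read from both ends, and trimmed reads were mapped to mm9. The submitters' processing notes name HISAT2 (given there as 4.8.2) and Cufflinks 2.2.1, run with RefSeq transcripts. The authors deposited FPKM values per transcript, 40201 per sample, named by RefSeq identifier only, and none of the member transcripts had a status other than OK. Depth was divided out by the authors and read counts were not used. The fragments implied by the widths of the deposited confidence intervals summed to between 1.52e+07 and 2.23e+07 per sample.

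Transcripts were given symbols through a RefSeq table for GRCm38.p6, which matched 39951 of them, and FPKM were summed per symbol. Positions are given in mm9, the build of the files, counted from 1. STO cells and NSCs were compared by linear models on log2(FPKM + 1), using limma 3.58.1 under R 4.3.3 and its empirical Bayes variances with a trend. Tested were 12277 genes whose mean reached 1 FPKM in either cell type, with Benjamini-Hochberg adjustment over all of them and a threshold of 0.05. Differences on this scale understate the change of low genes, and folds are ratios of mean FPKM. On simulated data with the same number of genes, 44 of 67, 62 of 67 and 65 of 66 genes changed by 0.5, 1 and 2 on the log2 scale were called, and 8 unchanged genes. Only 200 genes were changed in that simulation, a far smaller share than was called in the data. These rates therefore need not hold for the real test. Python 3.11.15, pandas 2.3.3 and numpy 2.4.6 were used for the remaining steps.

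The members, gene lists and tests were chosen with earlier results of these data known. Named are all members, and, from the list of other pathway genes, the 3 with the largest increase and the 3 with the largest decrease, with Furin, Ccn2, Tgfbi and Id1 to Id4. One further gene of the naming rule is not reported here. Transcripts are described where the leading one differed between the cell types. Ltbp1, Ltbp4, Chrdl1, Fbn1, Klf10, Cdkn2b and Cdkn1a were added after their values were seen. No set test was run.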

Additional observations from a re-analysis of the deposited data

How the results depend on the processing

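The direction and call of 31 of the 37 tested members were the same under all alternatives that gave a value: a pseudocount of 0.1, no filter, a filter of 5 FPKM, TPM, quantile normalization, equal medians, no trend, the replicate block, the highest transcript only, and leaving out each sample. Requiring a difference of at least 1 on the log2 scale left 16 members higher and 4 lower, 25 and 10 of the other pathway genes, and 2099 and 2613 of all genes. Inha turned positive but was not called with TPM (0.13), and it was called higher in STO cells with quantile normalization (0.43). Its difference ranged from -0.020 to 0.012 when 1 sample was left out. It was called lower with its highest transcript only (-0.17). Acvr1b lost its call with equal medians, the block, the highest transcript and without NSC replicate 1 or 2 or STO replicate 1 or 2. Acvr2b lost it with quantile normalization (-0.12), and Id2 with TPM (-0.11), the block and without NSC replicate 2, STO replicate 2 or STO replicate 3. Bmpr2 was called higher with TPM (0.43) and with the block (0.36), and Nog with TPM (0.25) and quantile normalization (0.83). TPM moved the median difference of all tested genes from -0.02 to 0.12. The cause of these changes was not tested.

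Samples with the same replicate number were not paired by the labels, and their deviations from the group means correlated by 0.0058 and 0.064, against -0.064 to 0.055 for other pairs. With the replicate number as a block, 25 members were higher and 9 lower, 14 instead of 16 of the other pathway genes were lower, and 4988 and 5249 of all genes were called. Between 24 and 26 members were higher and 9 lower when 1 sample was left out. Depth limits the genes below 1 FPKM, which were described without a test.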
